A study of Mus musculus with 13 samples.

Results

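The genes described here carry calcium into, hold it in and let it out of the sarcoplasmic reticulum of heart muscle: Ryr2, Atp2a2, Pln, Sln, Casq1, Casq2, Trdn, Hrc, Jph1 and Jph2. They were chosen by gene symbol, and all 10 were found among the 26264 genes listed in every library. Polyadenylated RNA of the right ventricle was sequenced from wild-type mice (6 libraries) and from mice whose Dsg2 gene carries the F536C substitution as a knock-in (7 libraries). Desmoglein 2, the product of Dsg2, is a cadherin that anchors neighbouring cardiomyocytes to each other at desmosomes. The labels do not say on which alleles the substitution lies, name no treatment, and give no strain, sex, age, litter or batch. They also do not state that each library came from its own animal, so p-values here reflect only how these samples spread.

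At each heartbeat a small calcium influx through channels of the cell membrane opens the ryanodine receptor, RYR2, and the sarcoplasmic reticulum empties part of its store into the cytosol, where calcium starts contraction. The pump SERCA2a, made from Atp2a2, then returns the calcium, and phospholamban (Pln) and sarcolipin (Sln), small membrane proteins that bind the pump, hold it back. Inside the store calsequestrin (Casq2 in heart, Casq1 mainly in skeletal muscle) and the histidine-rich calcium binding protein (Hrc) bind calcium, triadin (Trdn) ties calsequestrin to the release channel, and the junctophilins (Jph1, Jph2) hold the store against the cell membrane. Inherited changes in RYR2, CASQ2 and TRDN are known causes of arrhythmia brought on by adrenaline.

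The open reading frames of the pump's 2 small inhibitors are printed to show how short these messages are and where phospholamban is regulated. They were read from GENCODE mouse transcripts of build GRCm38. In Pln the capitals mark codons 16 and 17, the serine that protein kinase A phosphorylates and the threonine that the calcium/calmodulin kinase phosphorylates, which release the pump from inhibition. The frame has 159 bases and encodes 52 residues, that of Sln has 96 bases and encodes 31 residues, and no capitals are used for Sln.
Pln: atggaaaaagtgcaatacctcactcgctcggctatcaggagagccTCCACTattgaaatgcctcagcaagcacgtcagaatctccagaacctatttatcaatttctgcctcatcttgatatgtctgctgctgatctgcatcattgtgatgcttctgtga
Sln: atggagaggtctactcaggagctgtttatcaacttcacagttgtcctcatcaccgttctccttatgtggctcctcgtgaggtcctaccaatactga

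RefSeq promoter windows were on hand for 6 of the 10 genes (Casq1, Casq2, Hrc, Jph2, Pln and Ryr2). The 250 bases before the start sites of Pln and Ryr2 are printed to set the pump's inhibitor beside the release channel, since their windows had unlike base composition. In build GRCm38.p6 the Pln window is chr10:53337436-53337685 on the plus strand, with 32.8% G and C, and the Ryr2 window is chr13:12106946-12107195 on the minus strand, with 63.2%, against a median of 52.4% over all 32851 windows of that length. Capitals mark the letters TATAAA (on the strand printed), AGATAA (found here on the other strand, as TTATCT) and the E-box CANNTG.
Pln: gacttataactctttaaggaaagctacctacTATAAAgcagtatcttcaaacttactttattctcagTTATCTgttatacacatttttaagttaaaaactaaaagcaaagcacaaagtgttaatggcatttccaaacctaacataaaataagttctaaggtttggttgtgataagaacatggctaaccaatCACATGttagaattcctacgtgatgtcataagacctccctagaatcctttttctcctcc
Ryr2: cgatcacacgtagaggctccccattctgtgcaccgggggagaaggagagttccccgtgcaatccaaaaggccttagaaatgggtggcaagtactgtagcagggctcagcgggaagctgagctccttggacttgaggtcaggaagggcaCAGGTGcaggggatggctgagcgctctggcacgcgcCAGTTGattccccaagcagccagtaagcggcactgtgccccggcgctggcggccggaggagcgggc
The E-box letters were in the windows of all 6 genes and in 66.2% of all windows. AGATAA was in 1 of the 6, Pln, and in 9.99% of all windows, and TATAAA likewise in Pln alone and in 12.4% of all. The MEF2 and CArG motifs, searched by name on both strands, were in none of the 6 and in 0.508% and 1.47% of all windows. Such matches describe the letters in a window and say nothing of binding.

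Totals ran from 14498336 to 29848597 reads per library, and the files give estimated read numbers and TPM, which allow for gene length. Dsg2 lay at 16.9 to 25.0 TPM in wild type and 9.48 to 15.99 TPM in knock-in, so the groups did not overlap. Knock-in 4, 5 and 6 stood apart: 10.2% to 10.7% of their values were not whole numbers (tolerance 1e-09), against 3.07% to 3.79% in the other 10 libraries. Their summed level of 5 epithelial markers was 1755 to 2979 TPM, against 8.24 to 32.5 TPM in the other 10. For the 10 genes described here the read numbers were whole, by the same tolerance, in all 13 libraries. Each comparison therefore has 2 versions, with all 13 libraries and with the 10 that remain without knock-in 4, 5 and 6. The presence of heart muscle was checked on 10 cardiomyocyte markers, none of them at 0 in any group. These markers cannot tell right ventricle from other heart muscle. Their summed level was 65349 to 86875 TPM in wild type, 44597 to 63438 TPM in knock-in 1, 2, 3 and 7, and 37757 to 39131 TPM in knock-in 4, 5 and 6.

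Most of these genes were lower in knock-in right ventricles than in wild type, and none was higher with TMM scaling, whereas Casq1 was higher with libraries scaled to cardiomyocyte markers. With all 13 libraries 8 of the 10 passed an adjusted p of 0.05 (quasi-likelihood test of edgeR, Benjamini-Hochberg over all tested genes) and all 8 were lower: Ryr2, Atp2a2, Pln, Casq2, Hrc, Trdn, Jph1 and Jph2. Among all 14588 genes tested, 21% were called lower and 23.6% higher, 44.6% in all. With the 10 libraries 7 of the 10 were lower, without Jph2, where 21.3% of 14518 genes were called lower and 22.3% higher, 43.7% in all. The median log2 fold change of the 10 genes was -1.03 with 13 libraries and -0.82 with 10, beside 0.08 and 0.02 over all genes tested. In 6 of them (Ryr2, Atp2a2, Pln, Hrc, Trdn and Jph1) every knock-in library lay below every wild-type library in CPM, read numbers scaled to the library total after TMM normalisation. This held in both sets, whereas 10.5% and 15% of all genes tested were separated in that direction and 8.61% and 14.8% in the other. The separation depended on the scaling. In TPM with 13 libraries only Atp2a2 stayed apart. The highest knock-in and lowest wild-type values were 66.0 and 55.6 TPM for Ryr2, 6259 and 6096 for Pln, and 297.5 and 280.5 for Hrc. They were 518.2 and 516.3 TPM for Trdn and 6.81 and 6.51 for Jph1. Without knock-in 4, 5 and 6 the highest knock-in value of Jph1 was 5.35 TPM. With library totals in place of TMM, which moves the median of all genes to 0.33 with 13 libraries and 0.26 with 10, 7 and 6 of the 10 genes were lower and none higher, beside 1661 lower and 6110 higher among all genes with 13 libraries. Together the 10 genes took 2.36% to 2.83% of all reads in wild type, 1.44% to 2.04% in knock-in 1, 2, 3 and 7, and 0.993% to 1.01% in knock-in 4, 5 and 6. Of the 10 cardiomyocyte markers, 9 were called lower with 13 libraries and 8 with 10, with median log2 fold changes of -0.93 and -0.73, and in whole tissue fewer cardiomyocytes and less RNA per cardiomyocyte cannot be told apart. Of the markers of other cells, the summed level of 6 fibroblast markers was 1310 to 1915 TPM in wild type and 2329 to 3630 TPM in knock-in, that of 5 macrophage markers 513 to 708 and 891 to 2335 TPM, and that of 5 smooth muscle markers 139.8 to 231.7 and 261 to 697 TPM. In each of these 3 lists 2 genes were called higher and 0 lower with 13 libraries, and 5, 4 and 2 higher with 10. The 5 endothelial markers (257 to 479 and 309 to 525 TPM) and the 4 adipocyte markers (13.004 to 122.9 and 6.15 to 100.2 TPM) overlapped between the genotypes, with 0 called in either direction with 13 libraries and 1 endothelial marker called higher with 10. Their part in the result was not tested.

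**Figure D1:**
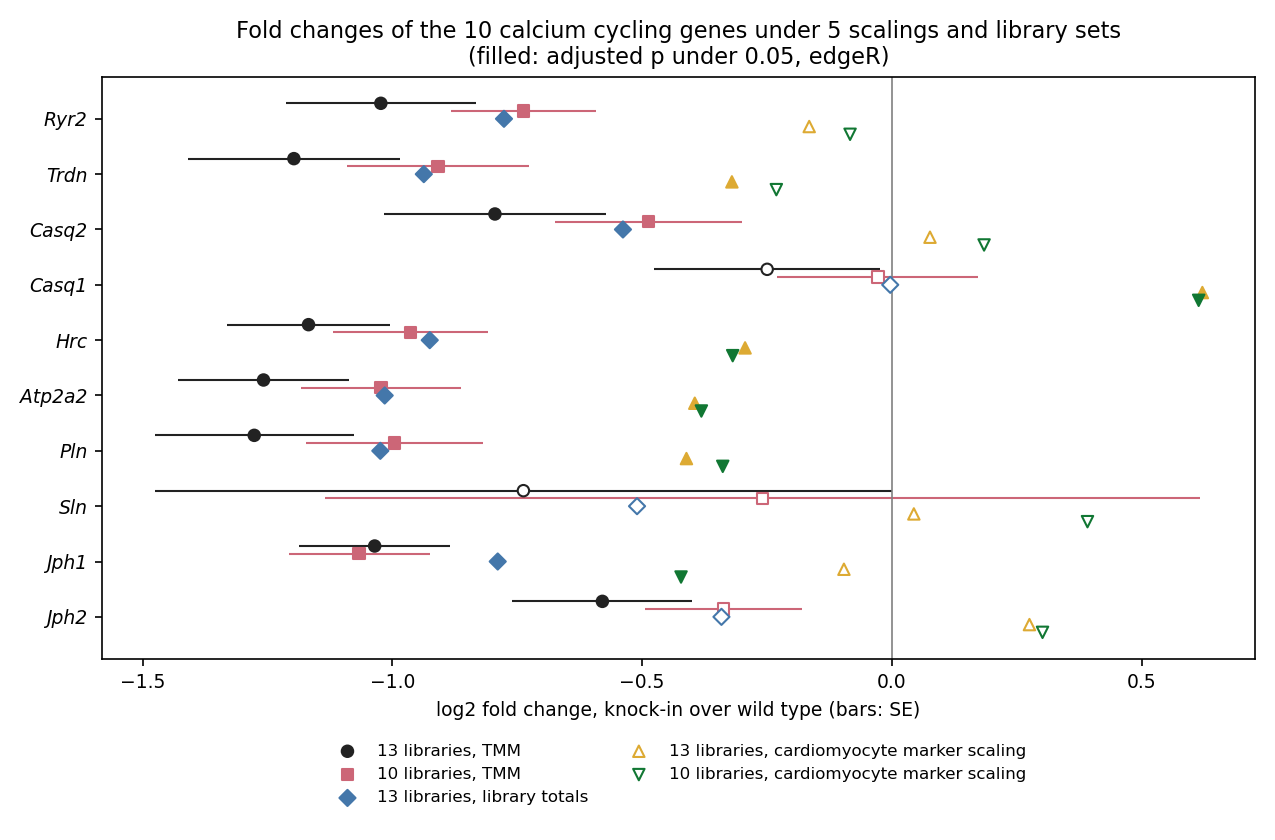
Log2 fold change of each of the 10 genes, knock-in over wild type, with libraries scaled by TMM (circles for 13 libraries, squares for 10, bars for the SE), by library totals (diamonds) or by cardiomyocyte markers (triangles); filled symbols have an adjusted p under 0.05 in edgeR. Ryr2, Trdn, Hrc, Atp2a2, Pln and Jph1 lie below -1 with TMM and 13 libraries, and all symbols move to the right with the marker scaling, past 0 for Casq1, Casq2, Sln and Jph2.

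By TPM, which allows genes to be set side by side, the transcripts of the store covered a wide range in wild-type right ventricle. The median was 7939 TPM for Pln and 2367 TPM for Atp2a2, so the inhibitor's message outnumbered that of its pump. Below them came Trdn at 672.5, Casq2 at 555.6, Sln at 382, Hrc at 318, Jph2 at 98.5, Ryr2 at 67.7, Jph1 at 7.06 and Casq1 at 2.58 TPM. The ranges of the wild-type libraries overlapped between Trdn and Casq2, Casq2 and Sln, Sln and Hrc, and Jph2 and Ryr2, so the order within those pairs is not fixed by the medians, although Trdn exceeded Casq2 and Jph2 exceeded Ryr2 in each of the 6 libraries. In knock-in the medians ran in the order Pln (4365), Atp2a2 (1339), Sln (451), Trdn (403), Casq2 (387), Hrc (189.7), Jph2 (94.9), Ryr2 (42.7), Jph1 (4.85) and Casq1 (2.97 TPM). There the ranges of neighbours overlapped between Sln and Trdn, Trdn and Casq2, Casq2 and Hrc, and Jph1 and Casq1. Sln, whose knock-in libraries spanned 17.05 to 911.9 TPM, had the third highest median in knock-in 1, 2, 3 and 7 and the sixth in knock-in 4, 5 and 6, against the fifth in wild type. Trdn, above Casq2 in all 6 wild-type libraries, was above it in 3 of the 7 knock-in libraries. The heart isoforms dominated their families: Casq1 made 0.357% to 0.729% of calsequestrin TPM in wild type and 0.496% to 1.12% in knock-in.

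**Figure D2:**
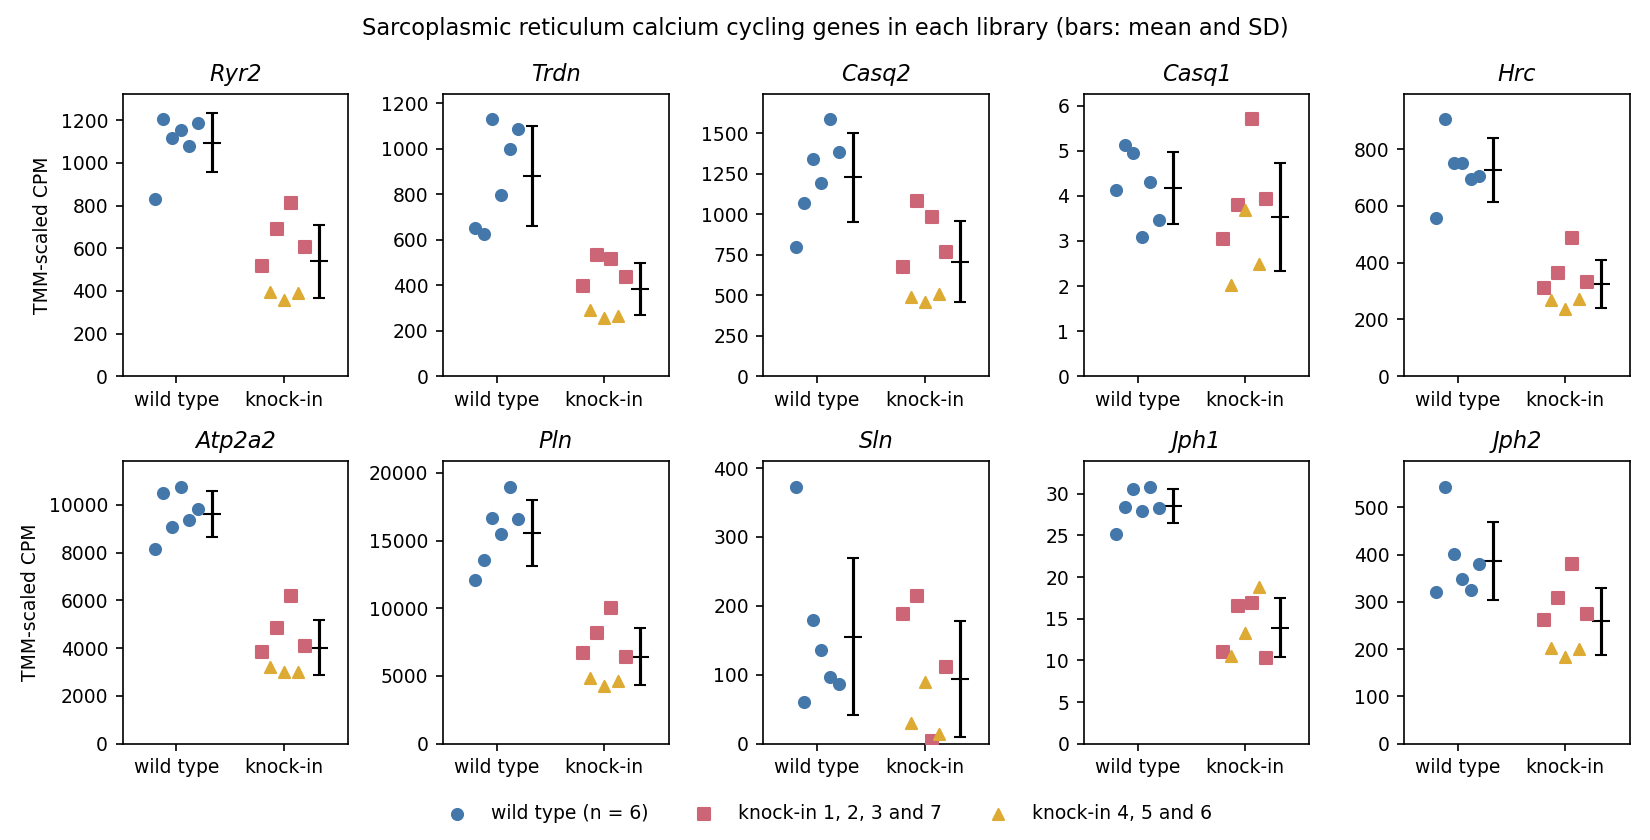
TMM-scaled CPM of each of the 10 genes in every library, 1 panel per gene on its own linear axis from 0, with circles for wild type, squares for knock-in 1, 2, 3 and 7, triangles for knock-in 4, 5 and 6, and bars for the mean and SD of each genotype. Wild-type and knock-in points are separate for Ryr2, Trdn, Hrc, Atp2a2, Pln and Jph1 and overlap for the other 4 genes.

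The calcium pump and its main inhibitor were both lower in knock-in. Atp2a2 lay at 8136, 9612 and 10759 CPM (lowest, median and highest) in wild type. It lay at 3829, 4853, 6165 and 4073 CPM in knock-in 1, 2, 3 and 7 and at 3220, 2997 and 3000.3 CPM in knock-in 4, 5 and 6. Even the highest knock-in library, number 3, was below every wild-type library. The log2 fold change was -1.26 ± 0.17 (SE, edgeR adjusted p = 9.94e-05) with 13 libraries and -1.02 ± 0.16 (SE, edgeR adjusted p = 0.000240) with 10. Its share of the TPM of all 3 SERCA pump genes was 99.69% to 99.82% in wild type. That share was 99.27% to 99.55% in knock-in 1, 2, 3 and 7 and 96.93% to 98.69% in knock-in 4, 5 and 6. The genotypes did not overlap in it.

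Pln, phospholamban, lay at 12059, 16023 and 18976 CPM in wild type. Knock-in 1, 2, 3 and 7 had 6679, 8149, 9987 and 6380 CPM, and knock-in 4, 5 and 6 had 4851, 4258 and 4643 CPM. As for the pump, knock-in 3 was the highest of its group and still under the wild-type range in CPM. The log2 fold change was -1.28 ± 0.20 (SE, edgeR adjusted p = 0.000249), and -0.996 ± 0.177 (SE, edgeR adjusted p = 0.000559) with 10 libraries. Pln shares 1312 bases of exon with a gene on the opposite strand, Atp2a2 83 bases and Casq1 101 bases in the GENCODE annotation of GRCm38, and how strand was treated in counting is not given in the sources used here, so their values are uncertain to that extent.

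The ratio of Pln to Atp2a2 in TPM, which no scaling of the library can move, was 2.42 to 3.78 in wild type and 2.75 to 3.26 in knock-in. All 7 knock-in ratios fell inside the wild-type range. The difference of the mean log2 ratios was 0.02 (exact permutation test, two-sided, p = 0.853, adjusted p = 0.935 over 8 ratios), and with the 10 libraries it was 0.05 (exact permutation p = 0.714, adjusted p = 0.816 over 8 ratios). A difference in the ratio was not detectable here, and a p above the threshold does not show that the ratios were equal.

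Sln, sarcolipin, which is abundant in atria and low in ventricles of rodents, varied more between libraries than any of the other genes. In wild type it lay at 60.5, 116 and 373 CPM, the highest value being that of wild type 1. In knock-in 1, 2, 3 and 7 it lay at 189, 215, 3.87 and 112 CPM, and in knock-in 4, 5 and 6 at 30.03, 89.5 and 13.9 CPM. The groups overlapped throughout, and knock-in 3, the lowest of all, held 59 reads. In TPM the highest library was 5.54 times the lowest in wild type and 53.5 times in knock-in, against at most 2.81 times for any of the other 9 genes in either group. Sln did not pass the test, with a log2 difference of -0.74 ± 0.74 (SE, edgeR adjusted p = 0.429) with 13 libraries and -0.26 ± 0.88 (SE, edgeR adjusted p = 0.835) with 10.

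Among 13889 tested genes whose mean reached 1 CPM, those whose log2 CPM followed Sln most closely over the 13 libraries were Myl7 (Pearson r = 0.981), Myl4 (r = 0.981) and Mybphl (r = 0.948). Myl7 and Myl4 encode the atrial light chains of myosin. Libraries of both genotypes are pooled in these coefficients, which describe likeness only. In knock-in 3 Sln, Myl7 and Myl4 lay at 17.05, 26.8 and 20.1 TPM, and in wild type 1 at 1347, 1010 and 839.6 TPM. The ratio of Sln to Myl7 was 0.635 to 1.86 over all 13 libraries, a 2.93-fold range. The 7 atrial markers summed to 526 to 3539 TPM in wild type, 2386 to 10424 TPM in knock-in 1, 2, 3 and 7 and 2168 to 3856 TPM in knock-in 4, 5 and 6. Nppa, the natriuretic peptide gene, made most of the knock-in sums, with 8875 TPM in knock-in 2 and 2234 TPM in knock-in 3, whereas Myl7 and Myl4 overlapped between the genotypes and were lowest in knock-in 3. With 13 libraries 6 of the 7 were tested, 1 was called higher and 1 lower. The part of atrial RNA in the level of Sln was not tested.

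**Figure D3:**
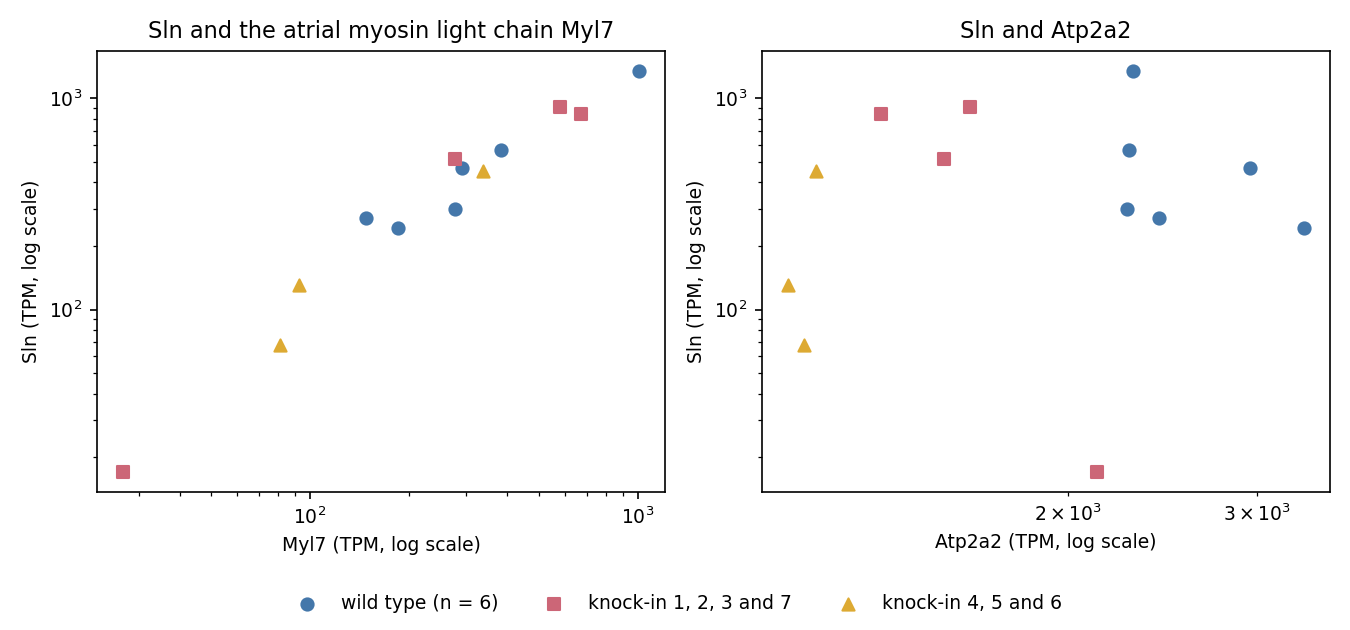
Sln TPM in each of the 13 libraries against Myl7 TPM (left) and Atp2a2 TPM (right), on log axes, with circles for wild type, squares for knock-in 1, 2, 3 and 7 and triangles for knock-in 4, 5 and 6. On the left the points run along a diagonal from knock-in 3, at 17.05 TPM of Sln and 26.8 TPM of Myl7, to wild type 1, at 1347 and 1010 TPM, and on the right they do not.

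For Atp2a2 the genes with the closest pattern over the 13 libraries were Pgap4 (r = 0.995), Nnt (r = 0.994), the mitochondrial transhydrogenase, and Paqr9 (r = 0.993). Both groups are pooled in these coefficients too, so they hold the difference between the genotypes.

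The release channel and its anchor were lower as well. Ryr2 lay at 829, 1135 and 1205 CPM in wild type. In knock-in it lay at 517, 691, 810 and 607 CPM (libraries 1, 2, 3 and 7) and at 396, 356 and 392 CPM (4, 5 and 6). The groups were separate by a narrow margin, between wild type 1 at 829 and knock-in 3 at 810 CPM. The log2 fold change was -1.02 ± 0.19 (SE, edgeR adjusted p = 0.000848), and -0.74 ± 0.15 (SE, edgeR adjusted p = 0.00116) with 10 libraries. Ryr2 made 99.57% to 99.8% of the TPM of the 3 ryanodine receptor genes in wild type, 99.21% to 99.69% in knock-in 1, 2, 3 and 7 and 93.1% to 99.03% in knock-in 4, 5 and 6.

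Trdn, triadin, lay at 623, 897 and 1129 CPM in wild type. Knock-in 1, 2, 3 and 7 had 397, 531, 513 and 434 CPM, and knock-in 4, 5 and 6 had 291, 257 and 265.5 CPM. No knock-in library reached the wild-type range in CPM. Its log2 fold change was -1.20 ± 0.21 (SE, edgeR adjusted p = 0.000592), and -0.91 ± 0.18 (SE, edgeR adjusted p = 0.00131) with 10 libraries.

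Of the 3 calcium-binding proteins of the lumen, Hrc had the largest fold change. It lay at 557, 727 and 906 CPM in wild type, at 309.5, 363, 489 and 331 CPM in knock-in 1, 2, 3 and 7 and at 267, 236 and 271 CPM in knock-in 4, 5 and 6. The groups were separate in CPM. The log2 fold change was -1.17 ± 0.16 (SE, edgeR adjusted p = 0.000122), and -0.96 ± 0.15 (SE, edgeR adjusted p = 0.000285) with 10 libraries.

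Casq2, the calsequestrin of heart muscle, lay at 801, 1265 and 1587 CPM in wild type and at 672, 1081, 986 and 764 CPM in knock-in 1, 2, 3 and 7. In knock-in 4, 5 and 6 it lay at 489, 458 and 507 CPM. Those 3 and knock-in 1 and 7 were below every wild-type library, whereas knock-in 2 and 3 lay inside the wild-type range. The log2 fold change was -0.79 ± 0.22 (SE, edgeR adjusted p = 0.0110), and -0.49 ± 0.19 (SE, edgeR adjusted p = 0.0484) with 10 libraries. The call with 10 libraries was lost without wild type 3, 4, 5 or 6 or knock-in 1, 3 or 7, with adjusted p up to 0.150 (edgeR), and held in 3 of the 10 fits that each left out 1 library. The call with 13 libraries was lost when limma was run on log TPM with a pseudocount of 1 (adjusted p = 0.0804) or 0.1 (adjusted p = 0.0766), and that with 10 when library totals replaced TMM, at -0.23 (adjusted p = 0.192, edgeR).

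Casq1, the calsequestrin of skeletal muscle, lay at 3.09, 4.21 and 5.13 CPM in wild type and at 2.03, 3.69 and 5.70 CPM in knock-in (lowest, median and highest). It rested on 51 to 112 reads per library, and the groups overlapped. The log2 difference was -0.25 ± 0.23 (SE, edgeR adjusted p = 0.381) and -0.03 ± 0.20 (SE, edgeR adjusted p = 0.922) with 10 libraries. The 10 markers of skeletal muscle summed to 9.47 to 13.8 TPM in wild type, 8.60 to 15.8 TPM in knock-in 1, 2, 3 and 7 and 11.1 to 153.6 TPM in knock-in 4, 5 and 6. The highest sum was that of knock-in 5, where Pvalb, the calcium buffer parvalbumin, was at 139.1 TPM, and the median of these 3 was 11.58 TPM, against 12.48 TPM in wild type.

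Both junctophilin genes were called lower with 13 libraries, and Jph1 also with 10. Jph2, the main junctophilin of the heart, lay at 321, 364 and 544 CPM in wild type, at 261, 308, 381 and 275 CPM in knock-in 1, 2, 3 and 7 and at 203, 184 and 199.6 CPM in knock-in 4, 5 and 6. Knock-in 3 lay inside the wild-type range and the other 6 knock-in libraries below it. The log2 fold change was -0.58 ± 0.18 (SE, edgeR adjusted p = 0.0185) with 13 libraries. With 10 it was -0.34 ± 0.16 (SE, edgeR adjusted p = 0.0970), and of the 10 fits that each left out 1 further library it passed in 1, without knock-in 3 (adjusted p = 0.0358, edgeR). The call with 13 libraries was lost with library totals, at -0.34 (adjusted p = 0.123, edgeR), with an indicator for knock-in 4, 5 and 6 (adjusted p = 0.0901, edgeR) and when limma was run on log TPM with a pseudocount of 1 (adjusted p = 0.452) or 0.1 (adjusted p = 0.449).

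Jph1, better known from skeletal muscle, was the less abundant junctophilin and lay at 25.2, 28.4 and 30.8 CPM in wild type. It lay at 11.05, 16.6, 16.9 and 10.3 CPM in knock-in 1, 2, 3 and 7 and at 10.6, 13.3 and 18.8 CPM in knock-in 4, 5 and 6. The groups were well separated in CPM. Here the fold change was as large without knock-in 4, 5 and 6 as with them: -1.04 ± 0.15 (log2, SE, edgeR adjusted p = 0.000161) with 13 libraries and -1.07 ± 0.14 (log2, SE, edgeR adjusted p = 7.22e-05) with 10. Jph1 made 4.50% to 7.87% of junctophilin TPM in wild type, 3.50% to 4.46% in knock-in 1, 2, 3 and 7 and 4.42% to 7.96% in knock-in 4, 5 and 6, which covered the wild-type range. The log2 ratio of Jph1 to Jph2 differed by -0.48 (exact permutation p = 0.0513, adjusted p = 0.0730 over 8 ratios) with 13 libraries and by -0.77 (exact permutation p = 0.00476, the smallest possible, adjusted p = 0.0190) with 10. With 13 libraries this ratio passed without wild type 2 (exact permutation, adjusted p = 0.0485) or knock-in 6 (exact permutation, adjusted p = 0.0115). With 10 it did not pass without wild type 1, 3, 4 or 6 (exact permutation, adjusted p = 0.0635 each), at -0.78 to -0.75 (log2). Leaving out a library raises the smallest possible p, so these fits cannot tell a weaker difference from fewer libraries.

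Ratios of TPM between genes of a library differed between the genotypes for 3 of 8 pairs with 13 libraries, and for 4 with 10. The test was an exact two-sided permutation of genotype over libraries, in which the smallest possible p is 0.000583 with 13 libraries and 0.00476 with 10. The ratio of Atp2a2 to Slc8a1, the sodium-calcium exchanger that removes calcium across the cell membrane, was 113 to 137 in wild type and 63.9 to 85.2 in knock-in. The groups did not overlap, and the difference was -0.77 (log2, exact permutation p = 0.000583, adjusted p = 0.00466) and, with 10 libraries, -0.78 (log2, exact permutation p = 0.00476, adjusted p = 0.0190). With 10 libraries the ratio did not pass without wild type 1, 3, 4 or 6 (exact permutation, adjusted p = 0.0635 each). The difference in those fits was -0.79 to -0.75 (log2). Leaving out a library raises the smallest possible p, so these fits cannot tell a weaker difference from fewer libraries. Slc8a1 itself had a log2 fold change of -0.52 ± 0.17 (SE, edgeR adjusted p = 0.0242), and -0.26 (adjusted p = 0.109, edgeR) with 10 libraries.

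The ratio of Jph2 to Ryr2 was higher in knock-in, at 1.88 to 2.28 against 1.31 to 1.97, with 1 wild-type library inside the knock-in range. The log2 difference was 0.48 (exact permutation p = 0.00117, adjusted p = 0.00466), and 0.42 (exact permutation p = 0.0190, adjusted p = 0.0476) with 10 libraries. The ratio of Trdn to Casq2 was lower in knock-in, at 0.814 to 1.06 against 1.01 to 1.51, and the ranges overlapped at their ends. The log2 difference was -0.36 (exact permutation p = 0.00350, adjusted p = 0.00932), and -0.38 (exact permutation p = 0.0238, adjusted p = 0.0476) with 10 libraries. With the 10 libraries these 2 calls held in 1 of 10 fits that left out a further library, that without wild type 2. The adjusted p otherwise rose to between 0.0635 and 0.119 (exact permutation), and here too fewer libraries raise the smallest possible p.

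The other ratios did not pass. That of Casq2 to Ryr2 was 6.18 to 10.2 in wild type and 8.47 to 10.9 in knock-in, a log2 difference of 0.25 (exact permutation p = 0.0548, adjusted p = 0.0730), which passed without wild type 5 (exact permutation, adjusted p = 0.00505). That of Casq1 to Casq2 differed by 0.54 (log2, exact permutation p = 0.0466, adjusted p = 0.0730), on the low counts of Casq1, and passed without wild type 1 (exact permutation, adjusted p = 0.0379) or wild type 2 (exact permutation, adjusted p = 0.0485). That of Sln to Atp2a2 differed by -0.10 (log2, exact permutation p = 0.935, adjusted p = 0.935).

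**Figure D4:**
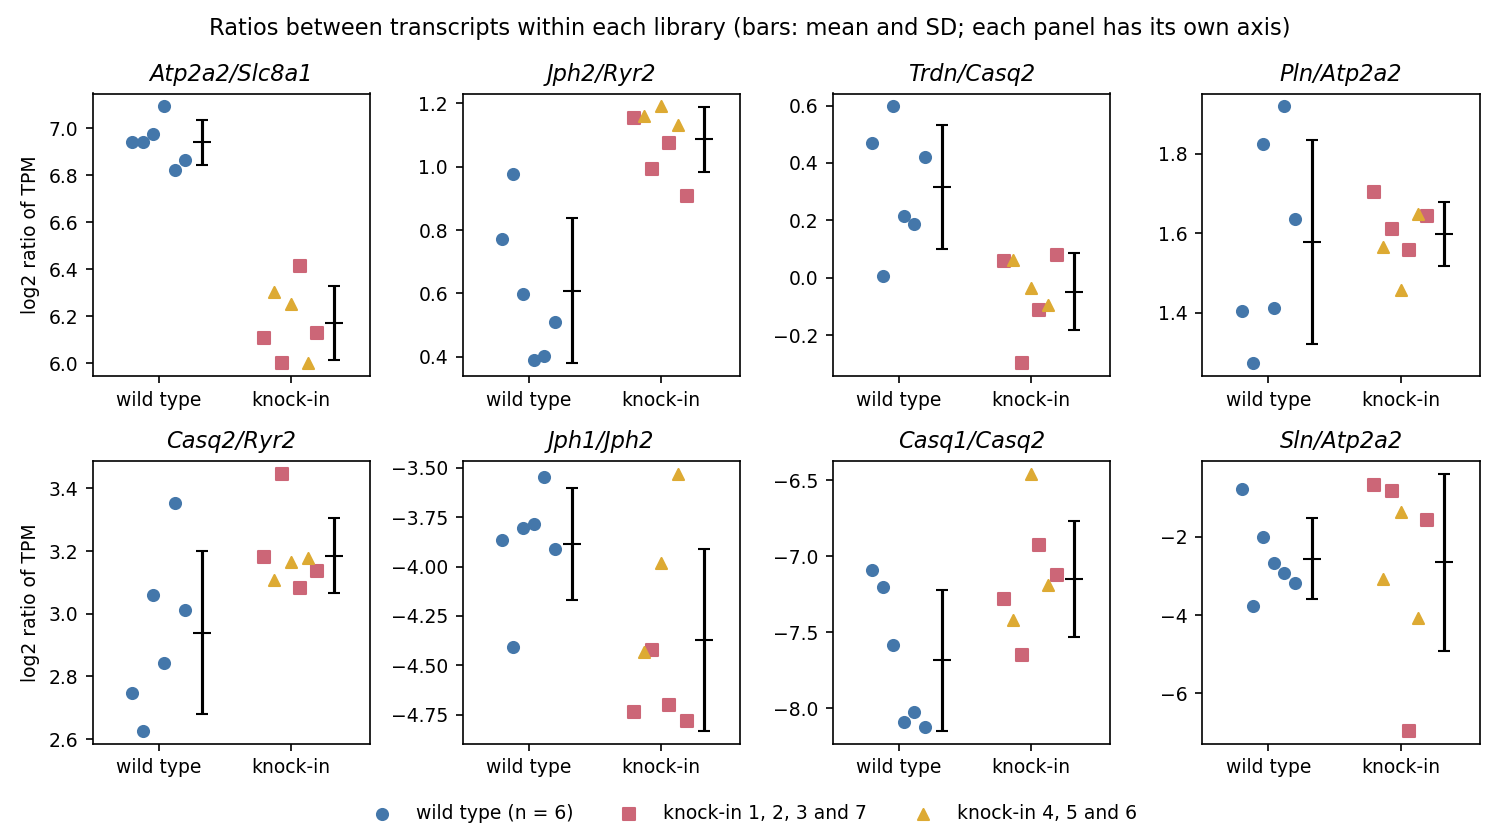
Log2 ratio of TPM between pairs of genes in each library, 1 panel per ratio on its own axis, with the symbols of the plot of CPM by library and bars for the mean and SD of each genotype. The genotypes are separate for Atp2a2 to Slc8a1, shifted with some overlap for Jph2 to Ryr2 and Trdn to Casq2, and mixed for Pln to Atp2a2.

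Since the cardiomyocyte markers were lower too, the libraries were also scaled to the geometric mean of the reads of those 10 markers. This scaling moves the median log2 fold change of all genes to 1.01 with 13 libraries and 0.69 with 10. It called 12117 of 14588 genes higher and 306 lower with 13 libraries, and 10628 of 14518 higher and 326 lower with 10. The markers themselves did not move alike. Tnni3 ran from 8495 to 12210 TPM in wild type and from 3459 to 6165 TPM in knock-in. Mybpc3 ran from 354.9 to 528.1 TPM and from 382.1 to 617.3 TPM. Whether a gene fell beyond the spread of the single markers was not tested. Relative to the markers, 4 of the 10 genes were still lower in knock-in with 13 libraries: Atp2a2 at -0.39 (adjusted p = 0.000734), Pln at -0.41 (adjusted p = 0.000144), Hrc at -0.29 (adjusted p = 0.0255) and Trdn at -0.32 (log2, adjusted p = 0.0276, all edgeR). With 10 libraries Atp2a2 was at -0.38 (adjusted p = 0.00831), Pln at -0.34 (adjusted p = 0.00708), Hrc at -0.32 (adjusted p = 0.0428) and Jph1 at -0.42 (log2, adjusted p = 0.0129, all edgeR). Trdn did not pass with 10 libraries, at -0.23 (adjusted p = 0.150, edgeR), and Jph1 did not with 13, at -0.10 (adjusted p = 0.652, edgeR). Ryr2 lay at -0.17 (adjusted p = 0.142, edgeR) and -0.08 (adjusted p = 0.547, edgeR), so its difference was not detectable against the markers. Casq2 and Jph2 changed sign without passing, at 0.08 and 0.28 with 13 libraries. Casq1 was called higher, as most genes were under this scaling, at 0.62 (adjusted p = 0.0151, edgeR) and 0.61 (adjusted p = 0.0235, edgeR).

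The wider calcium-cycling pathway was read from a list of 47 other genes in 6 roles, of which 45 matched a symbol and 43 were tested. With 13 libraries 21 of the 43 were lower in knock-in, 7 were higher and 15 did not pass, with a median log2 fold change of -0.38, whereas library totals in place of TMM gave 12 lower and 13 higher. With 10 libraries 19 of 41 were lower, 5 higher and 17 did not pass, with a median of -0.30. Over all genes tested 21% were lower and 23.6% higher with 13 libraries, and 21.3% and 22.3% with 10. The counts within a role are of 3 to 10 genes, and some lie near these shares. With TMM, in each role but that of the release channels and their partners, more genes were called lower than higher.

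Beside the pump, Strit1, whose micropeptide DWORF displaces phospholamban from SERCA, was at -1.48 ± 0.24 (log2, SE, edgeR adjusted p = 0.000356), and Mrln, which encodes the inhibitor myoregulin, at -1.74 ± 0.36 (log2, SE, edgeR adjusted p = 0.00165). Of the 4 tested genes in that role 2 were lower and 1 was higher, Atp2a3, which is named here after its value was seen, at 0.97 (adjusted p = 0.0124, edgeR). Its knock-in mean was 45.2 CPM (SD 26.5), and with 10 libraries Atp2a3 was at 0.41 (log2, adjusted p = 0.00279, edgeR). Of 7 genes of the lumen and membrane of the store, 3 were lower and 1 higher. The higher one, named after its value was seen, was Calr at 0.54 (log2, adjusted p = 0.0208, edgeR), and 0.26 (adjusted p = 0.0886, edgeR) with 10 libraries. Tmem38a, a potassium channel of the reticulum membrane, was at -0.71 (adjusted p = 0.00307, edgeR) and Reep5, which shapes that membrane, at -0.51 (log2, adjusted p = 0.00545, edgeR).

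Of 10 release channels and partners, 2 were lower and 4 higher with 13 libraries, and 2 lower and 2 higher of 9 with 10 libraries, so the share called lower was near that of all genes. The 4 higher genes, named after their values were seen, were Ryr1 at 4.00, Itpr3 at 1.13, Fkbp1b at 0.83 and Itpr2 at 0.31 (log2). The genotypes overlapped in CPM for each of them. Ryr1 had a mean of 0.250 CPM in wild type and 3.99 CPM (SD 7.62) in knock-in. The means were 21.6 and 47.1 CPM (SD 32.1 in knock-in) for Itpr3, and 1.59 and 2.85 CPM for Fkbp1b. With 10 libraries Fkbp1b, which encodes the RYR2-binding protein FKBP12.6, was at 0.995 (adjusted p = 0.00569, edgeR) and sorcin, Sri, at 0.42 (adjusted p = 0.00101, edgeR), Itpr3 and Itpr2 did not pass (adjusted p = 0.177 and 0.0789, edgeR), and Ryr1 was not tested. The lower ones with the smallest p were Akap6, an anchor of protein kinase A at the release channel, at -0.78 (adjusted p = 0.00148, edgeR) and S100a1, a calcium sensor that binds RYR2, at -0.84 (log2, adjusted p = 0.00203, edgeR). Of 7 tested genes of the dyad and T-tubule, 4 were lower and 1 higher. The lower ones included Cav3, the caveolin of muscle, at -0.9996 (adjusted p = 0.000333, edgeR) and Speg, a kinase of the junction, at -0.53 (log2, adjusted p = 0.00727, edgeR). The higher one, named after its value was seen, was Bin1 at 0.50 (log2, adjusted p = 0.0170, edgeR). With 10 libraries Bin1 was at 0.45 (log2, adjusted p = 0.00627, edgeR), and its groups did not overlap in CPM in either set.

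Of 6 genes that move calcium across the cell membrane, 4 were lower and 0 higher with 13 libraries, and 3 and 0 with 10. Cacna2d1 and Cacnb2, accessory subunits of the L-type calcium channel, were at -1.18 (adjusted p = 0.000210, edgeR) and -0.97 (log2, adjusted p = 0.00171, edgeR). Another 9 genes were those of the kinases and the phosphatase that act on phospholamban, and of partner proteins. Of these 9, 6 were lower and 0 higher, and 5 and 0 with 10 libraries. Camk2d, the kinase of the threonine codon printed in capitals for Pln, was at -0.81 ± 0.12 (log2, SE, edgeR adjusted p = 0.000149). Akap7, which anchors protein kinase A near phospholamban, was at -0.79 ± 0.12 (log2, SE, edgeR adjusted p = 0.000254).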

How the data were processed

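Stranded Illumina libraries were made from polyadenylated RNA, per the labels' protocols. DRAGEN, without a version, and GRCm39 (mm39) are named in the submitters' processing notes, with annotation and strand setting not given in the sources used here. The authors deposited, for every library, estimated counts of reads per gene, TPM and gene lengths, per the file headers. Titles in the labels gave the group and number of each library.

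Estimated counts were rounded, genes kept with filterByExpr, libraries scaled by TMM, and knock-in compared with wild type by edgeR's quasi-likelihood F test with robust dispersion and no covariate (edgeR 4.0.16, R 4.3.3), adjusted over all tested genes. SE was computed as the log2 fold change over the root of F. Ratios of TPM were tested by exact permutation with Python 3.11.15, adjusted over the 8 ratios. The members, lists and alternatives were chosen with earlier results of these data known. Named genes were the 10 members, Slc8a1, in each pathway role the 2 called genes with the smallest p, and the 3 genes most like Atp2a2 and like Sln by r of log2 CPM (prior count 2). No within-group pair of libraries agreed within sampling noise: for the closest, wild type 3 and 6, chi-square per degree of freedom was 7.52. Promoters are from RefSeq and coding frames from GENCODE M21, both of GRCm38, for sequence only; the deposited values use GRCm39.

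The fit was tested on simulated counts with 200 changed genes. It recovered 61% of 2-fold and 15% of 1.5-fold changes with 13 libraries (14248 genes) and 89% and 52% with 10 (14258 genes), and 6.17% and 6.62% of calls were false. The changed genes went up and down in equal number and were few beside the 44.6% called in the data with 13 libraries. These rates may therefore not hold for the fit of the data. Alternatives were library totals, DESeq2 size factors, DESeq2 (1.42.0), limma (3.58.1) on log2(TPM + 1) and log2(TPM + 0.1), other filters, scaling to cardiomyocyte markers, an indicator for knock-in 4, 5 and 6, a replicate block and each library left out.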

Additional observations from a re-analysis of the deposited data

Results flagged for a closer look

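Of 36 groups of values examined for a single library far from the rest, 3 had one, where chance gives about 1 in 20. Ryr2 was low in wild type 1, at 829 CPM, where the gap to the next library was 0.660 of the range of the 6. Jph2 was high in wild type 2, at 544 CPM, with a gap of 0.638 of the range. The log2 ratio of Casq2 to Ryr2 was high in knock-in 2, at 3.45, with a gap of 0.732 of the range of the 7.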

How the results depend on the processing

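The directions of Ryr2, Atp2a2, Pln, Hrc, Trdn and Jph1 stayed lower in every alternative run. With library totals 1661 genes were lower and 6110 higher with 13 libraries, and 1528 and 6049 with 10; of the other pathway genes 12 were lower and 13 higher, and 11 and 12 with 10. With cardiomyocyte marker scaling 306 genes were lower and 12117 higher (326 and 10628 with 10 libraries), 4 members were lower and 1 higher in either set, and 3 pathway genes were lower and 29 higher (2 and 23 with 10). Under it, with 13 and 10 libraries, Sln was at 0.044 and 0.39, Casq1 at 0.62 and 0.61, Casq2 at 0.076 and 0.18, and Jph2 at 0.28 and 0.30 (log2). Limma on log2(TPM + 1) called 1087 genes lower and 7665 higher, and on log2(TPM + 0.1) 1098 and 7840, with 10 pathway genes lower in each and 14 and 15 higher; Casq1 was at 0.11 and 0.14. Casq1 was at 0.21 with library totals and 10 libraries. An indicator for knock-in 4, 5 and 6 gave 4 higher pathway genes. The cause of these shifts was not tested, beyond the medians of all genes that each scaling sets.

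Same-numbered libraries did not deviate together (r from -0.062 to 0.099). A low r cannot settle whether the numbers pair them, since a weak shared effect could be hidden by other variation. With the number as a replicate block 2270 genes were higher and 8 members lower. Blocked ratios differed by 0.51 for Jph2 to Ryr2, -0.39 for Trdn to Casq2 and -0.76 for Atp2a2 to Slc8a1, each with an exact adjusted p of 0.0833, where 6 pairs allow no p under 0.03125.

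Ratio differences that changed sign or side of the threshold were 0.043 for Sln to Atp2a2 and -0.77 for Jph1 to Jph2 with 10 libraries, and -0.025 for Pln to Atp2a2 from read numbers. Leaving out 1 library in turn, over both sets of libraries, gave ranges of -0.041 to 0.12 for Pln to Atp2a2, -0.57 to 1.53 for Sln to Atp2a2, 0.18 to 0.35 for Casq2 to Ryr2, 0.38 to 0.55 for Jph2 to Ryr2, -0.45 to -0.31 for Trdn to Casq2, 0.33 to 0.65 for Casq1 to Casq2, -0.88 to -0.41 for Jph1 to Jph2 and -0.86 to -0.73 for Atp2a2 to Slc8a1. Log2 differences of Sln ranged from -1.09 to 0.22 and of Casq1 from -0.40 to 0.085. Higher pathway genes numbered 4 to 10. Depth limits Casq1, at 51 to 112 reads, and Sln in knock-in 3, at 59 reads.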

Other observations

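The deposited length of Atp2a2, which differs between libraries where transcripts of unlike length are weighted, was 4368 to 4373 bases in wild type. It was 4394, 4385, 4384 and 4356 bases in knock-in 1, 2, 3 and 7, and 4447 to 4462 bases in knock-in 4, 5 and 6. These lengths were looked at after other values had been seen. The difference had an exact permutation p of 0.0431 with 13 libraries and 0.224 with 10 (two-sided). The coding transcripts of Atp2a2 in GENCODE M21 have 4486 and 3984 bases. The length of Trdn took a different value in every library, from 1530 to 1637 bases.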
